A study of Mus musculus with 2 samples.

Results

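Type 1 vomeronasal receptor (Vmn1r) genes carried few peaks of chromatin pulled down through green fluorescent protein (GFP) from mouse embryo heads, and the peaks were sparser there than in the intergenic sequence between the same receptors. The genes were taken from the RefSeq table of mouse build mm10 (GRCm38.p6) as autosomal protein-coding genes whose symbol starts with Vmn1r. This gave 231 of 20665 autosomal protein-coding genes. A gene was counted as having a peak when the summit, the highest point of the peak, lay in the gene body or within 1 kb of either end. That rule uses names and positions, but the family itself was picked with earlier results of these data known.

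Vmn1r genes encode G protein-coupled receptors of sensory neurons in the vomeronasal organ, a pheromone-sensing tube at the base of the nasal septum. A mature neuron expresses a single receptor of the family, chooses it from one allele, and signals through the G protein subunit Gnai2 and the channel Trpc2. The genes have a short intronless coding region and stand in tandem clusters that grew by duplication, so that neighbours can be nearly identical. Peak lists hold no expression values, so neither expression of the receptors nor the identity of the tissue could be checked from them.

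The series concerns histone H3.2, a core histone deposited during DNA replication, and the eye. It holds 2 chromatin immunoprecipitation sequencing (ChIP-seq) libraries, both from frozen mouse embryo heads at E10.5, embryonic days counted from mating, and both made with the same GFP antibody. The labels give no genotype, strain, sex, treatment or GFP-carrying protein, do not call either library a control, and do not say that the libraries came from separate embryos. They are called library 1 and library 2, with 584724 and 348 deposited peaks, of which 576675 and 118 lay on the 19 autosomes. With 1 condition and lists of such unequal length there was no contrast to test, and each value below describes 1 library. Intervals are 95% exact intervals on counts or shares and cover counting error only.

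Sequences around the annotated starts show how alike the genes are, which matters because reads from identical stretches cannot be assigned to 1 gene. RefSeq windows of 300 bases, from 250 before to 50 after an annotated transcript start (mm10), were matched for 206 of the 231 genes. The start of the window's transcript is that of the gene table in 198 of the 206, and in 8, among them Vmn1r4, Vmn1r14 and Vmn1r40, it lies 163 to 32599 bp inside a longer gene model. In 181 of the 206 the transcript start was the start codon, so for most of the family these windows lie next to the coding region and the true transcription start may be elsewhere. Peaks of library 1 overlapped 2 of these windows, those of Vmn1r45 (chr6:89940458-89940757, minus strand) and Vmn1r51 (chr6:90122393-90122692, plus strand), and both are shown first with the overlapped part in capitals. The window of Vmn1r48 (chr6:90036792-90037091, minus strand) is identical to that of Vmn1r47, and only Vmn1r48 had a peak within 1 kb. The window of Vmn1r114 (chr7:20812137-20812436, minus strand) is shared base for base by 4 genes, of which 2 had a peak. The window of Vmn1r111 (chr7:20703167-20703466, minus strand) is the most copied one, shared by 6 genes, none with a peak. In the last 3 sequences the capitals mark the start codon, and all 5 read 5′ to 3′ along the gene.
Vmn1r45: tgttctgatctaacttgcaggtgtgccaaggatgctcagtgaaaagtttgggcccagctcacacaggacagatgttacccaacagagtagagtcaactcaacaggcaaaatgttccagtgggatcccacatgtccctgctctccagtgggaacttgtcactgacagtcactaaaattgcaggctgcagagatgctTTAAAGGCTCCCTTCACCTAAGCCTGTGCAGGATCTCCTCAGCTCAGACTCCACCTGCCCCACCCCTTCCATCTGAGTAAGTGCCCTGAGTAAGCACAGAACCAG
Vmn1r51: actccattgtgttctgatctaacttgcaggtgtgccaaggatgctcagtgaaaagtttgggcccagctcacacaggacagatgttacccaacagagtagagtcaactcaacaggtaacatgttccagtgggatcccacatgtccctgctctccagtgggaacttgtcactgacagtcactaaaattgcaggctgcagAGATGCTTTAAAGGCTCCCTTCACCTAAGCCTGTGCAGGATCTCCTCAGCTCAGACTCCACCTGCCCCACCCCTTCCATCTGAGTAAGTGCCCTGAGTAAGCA
Vmn1r48: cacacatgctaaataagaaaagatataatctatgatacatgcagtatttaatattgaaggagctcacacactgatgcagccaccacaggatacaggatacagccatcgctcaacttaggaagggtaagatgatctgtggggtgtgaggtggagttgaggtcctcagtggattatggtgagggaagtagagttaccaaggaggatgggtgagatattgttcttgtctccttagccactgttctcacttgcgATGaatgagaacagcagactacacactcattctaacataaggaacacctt
Vmn1r114: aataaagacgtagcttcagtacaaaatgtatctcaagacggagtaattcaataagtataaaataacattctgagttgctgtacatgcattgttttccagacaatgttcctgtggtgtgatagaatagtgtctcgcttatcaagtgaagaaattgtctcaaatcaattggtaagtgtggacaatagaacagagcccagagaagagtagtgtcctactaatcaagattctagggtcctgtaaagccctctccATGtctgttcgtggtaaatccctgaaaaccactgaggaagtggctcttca
Vmn1r111: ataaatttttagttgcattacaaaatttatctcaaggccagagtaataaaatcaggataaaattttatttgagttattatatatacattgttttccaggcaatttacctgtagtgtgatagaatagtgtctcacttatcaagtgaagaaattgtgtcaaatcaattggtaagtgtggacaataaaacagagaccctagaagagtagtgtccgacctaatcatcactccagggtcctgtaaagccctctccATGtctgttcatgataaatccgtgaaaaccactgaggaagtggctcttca

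Across the family these windows were poor in G and C, with a median of 36.0% (range 24.3% to 51.3%), against 56.7% over the windows of 16457 autosomal protein-coding genes. The median number of CG dinucleotides was 1 in Vmn1r windows and 14 in all windows. The motif TATAAA, searched on both strands, was present in 87 of the 206 windows (42.2%) and in 13.5% of all windows. These are letter matches and not sites. Windows of the 35 genes with a peak had a median GC content of 37.0%, and those of the 171 genes without one had 35.7%.

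Library 1 had a summit at 38 of the 231 Vmn1r genes (16.5%, 11.9 to 21.9), where the share over all autosomal protein-coding genes was 90.0%. The groups also differed in length, since the median Vmn1r gene spanned 924 bp and the median protein-coding gene 17491 bp. Among 1128 other genes of 2 kb or less, which excludes the vomeronasal and olfactory receptors, the share was 73.8%. Olfactory receptor (Olfr) genes, of nearly the same median length as the family (950 bp), had a summit in 318 of 1104 cases (28.8%, 26.1 to 31.6). Type 2 vomeronasal receptor (Vmn2r) genes, whose long extracellular domain is spread over several exons, had one in 80 of 123 (65.0%, 55.9 to 73.4), but their median length was 24544 bp.

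Per base of sequence, Vmn1r and Vmn2r genes did not differ beyond counting error, and Olfr genes and other short genes held more. The Vmn1r bodies with 1 kb on either side held 43 summits in 0.842 Mb, or 51.1 per Mb (37.0 to 68.8). The same windows gave 63.1 per Mb (55.0 to 72.1) for Vmn2r genes, 122 per Mb (112 to 133) for Olfr genes and 469 per Mb (447 to 492) for the other short genes. The ratio of Vmn1r to Vmn2r density was 0.809 (0.569 to 1.13), that to Olfr density 0.418 (0.299 to 0.571), and that to other short genes 0.109 (0.0785 to 0.147). All autosomes together held 240.0 summits per Mb.

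**Figure D1:**
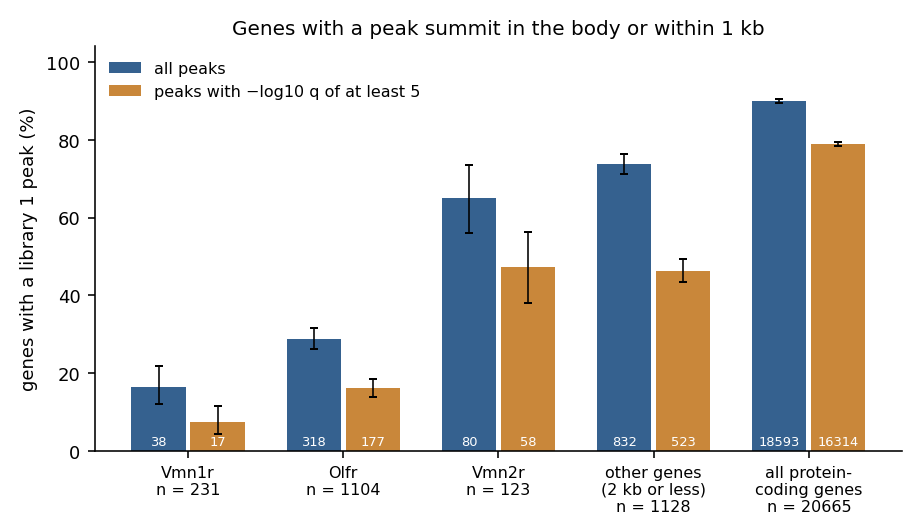
Percent of genes in each group (x axis) with a library 1 peak summit in the body or within 1 kb (y axis), for all peaks and for peaks with −log10 q of at least 5; error bars are 95% Clopper-Pearson intervals and the white numbers are genes with a peak. Vmn1r genes, at 16.5%, stood below Olfr genes at 28.8% and below other genes of 2 kb or less at 73.8%.

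Fewer genes in every group kept a peak at stricter thresholds. With −log10 q of at least 5, where q is the p-value of the peak caller corrected for multiple testing, 17 Vmn1r genes remained (7.36%, 4.35 to 11.5), against 78.9% of all autosomal protein-coding genes and 46.4% of the other short genes. Restricted to the 10% of autosomal peaks with the highest fold enrichment, 6 genes remained (2.60%), against 52.6% of all genes and 18.4% of the other short genes. The count also moved with the window. In the gene body alone 25 genes had a summit, where the shares were 88.4% of all genes and 66.8% of the other short genes. Within 5 kb the number was 115 (49.8%, 43.2 to 56.4), where those shares were 94.3% and 85.4%. Counting any overlap of the peak with the body or its 1 kb flanks gave 40 genes, against 90.1% and 74.2%. Of the 38 genes with a summit within 1 kb, 34 had a single summit, 3 had 2 and 1 had 3. The 21 genes longer than 2 kb had a peak in 8 cases (38.1%), and the 210 shorter genes in 30 (14.3%).

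Library 2 had no summit at any of the 231 genes (0%, exact upper limit 1.58%), where its share over all autosomal protein-coding genes was 0.150%. Its summit closest to a family member lay 696782 bp from Vmn1r39. A list of 118 autosomal peaks cannot tell the family apart from other genes at this share.

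The family stood in 10 clusters, taken as runs of 3 or more genes with gaps of at most 500 kb, which together held 222 genes. They spanned 0.136 to 3.95 Mb each, with 3 on chromosome 6, 5 on chromosome 7 and 1 each on chromosomes 13 and 17. Within them, Vmn1r windows held 42 summits in 0.793 Mb, or 53.0 per Mb (38.2 to 71.6). Intergenic sequence of the same clusters, over 1 kb from any annotated gene, held 1046 summits in 8.12 Mb, or 129 per Mb (121 to 137). The ratio was 0.411 (0.294 to 0.559). Other annotated genes in the clusters, among them Vmn1r pseudogenes, held 138 per Mb (120 to 157), above the Vmn1r windows and near the intergenic value.

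The ratio was below 1 in 9 of the 10 clusters, and in 3 of these its interval lay wholly below 1. The largest cluster, from Vmn1r91 to Vmn1r183 on chromosome 7 (20101158 to 24055691), held 86 genes and 10 with a peak (11.6%, 5.72 to 20.3). Its Vmn1r windows had 38.9 summits per Mb (18.7 to 71.6) and its intergenic sequence 147 per Mb (134 to 161), a ratio of 0.265 (0.126 to 0.491). The cluster from Vmn1r4 to Vmn1r31 on chromosome 6 (56923914 to 58472878) holds most genes of the V1rc subfamily. There 3 of 28 genes had a peak, and the ratio was 0.393 (0.141 to 0.884) between 39.9 and 101 summits per Mb. The third such cluster, from Vmn1r72 to Vmn1r84 on chromosome 7 (11669599 to 12362764), had none in 13 genes and 60 intergenic summits, which bounded the ratio at 0.909.

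No gene had a peak in 2 further clusters, the 8 genes from Vmn1r32 to Vmn1r39 on chromosome 6 (66552183 to 66805332) and the 6 genes from Vmn1r66 to Vmn1r71 on chromosome 7 (10273828 to 10749538). With so little gene sequence, both intervals reached past 1 (upper bounds of 1.14 and 2.99). On chromosome 17 (20419163 to 21314886) the cluster from Vmn1r224 to Vmn1r237 had 1 of 14 genes with a peak, and a ratio of 0.187 (0.00467 to 1.07). That gene, Vmn1r235 (V1rf2), had its summit 687 bp beyond its end, with a fold of 3.77. The cluster from Vmn1r55 to Vmn1r65 on chromosome 7 (5146490 to 6011010), made of V1rd genes among others, had 2 of 11 with a peak and a ratio of 0.361 (0.0427 to 1.36).

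Members of 3 clusters came closer to their intergenic sequence. The chromosome 13 cluster from Vmn1r188 to Vmn1r223 (22087878 to 23250323), home of the V1rh and V1ri subfamilies, had a peak at 12 of 36 genes (33.3%, 18.6 to 51.0), with 113 summits per Mb in the genes and 153 per Mb between them, a ratio of 0.737 (0.372 to 1.33). Near the V1ra and V1rb genes, from Vmn1r40 to Vmn1r54 on chromosome 6 (89711261 to 90270053), 5 of 15 genes had a peak and the ratio was 0.694 (0.266 to 1.53). The smallest cluster, Vmn1r85 to Vmn1r89 on chromosome 7 (13084289 to 13220289), had a peak at 4 of 5 genes (80%, 28.4 to 99.5) and was the only one with a ratio above 1, at 1.21 (0.303 to 3.57). Its intergenic density, 225 per Mb, was also the highest of the 10. Set apart after its values were seen, the chromosome 13 cluster had 2.58 times (1.20 to 5.19) the density of the Vmn1r windows of the other 9, in which 25 of 186 genes had a peak (13.4%, 8.89 to 19.2).

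**Figure D2:**
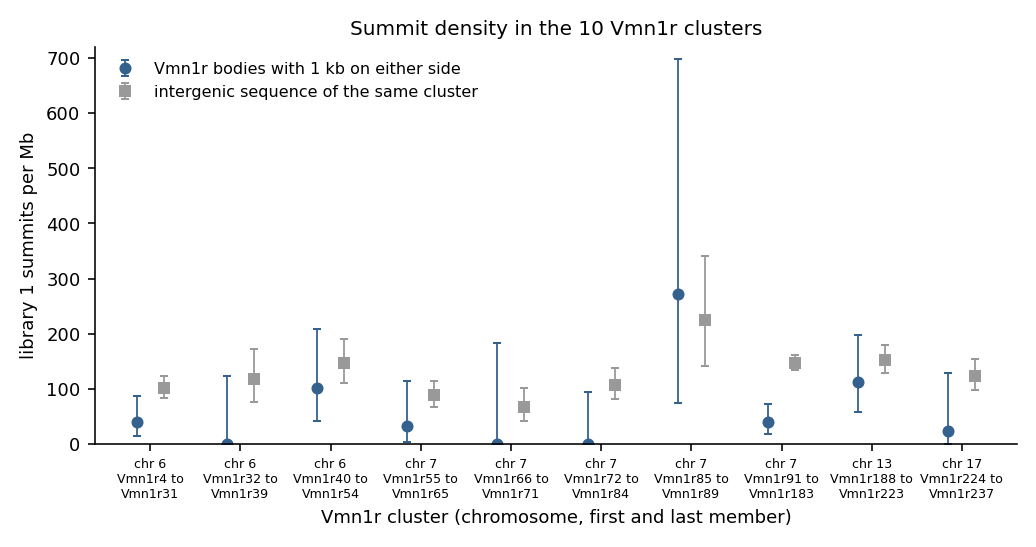
Library 1 summits per Mb (y axis) in Vmn1r windows (circles) and in intergenic sequence (squares) of each of the 10 clusters (x axis); bars are 95% exact Poisson intervals. Circles lie below squares in 9 clusters, most clearly from Vmn1r91 to Vmn1r183 (38.9 against 147 per Mb), and above in the cluster from Vmn1r85 to Vmn1r89.

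The clusters as a whole were also sparse. Their full spans held 125 summits per Mb (118 to 132), against 247 per Mb (246 to 249) on the rest of the same 4 chromosomes, a ratio of 0.504 (0.477 to 0.532). In intergenic sequence alone the difference was smaller, with 129 per Mb in the clusters and 179 per Mb (177 to 180) elsewhere, a ratio of 0.722 (0.678 to 0.767). By chromosome that ratio was 0.712 (0.613 to 0.823) on chromosome 6, 0.666 (0.614 to 0.722) on chromosome 7, 0.905 (0.761 to 1.07) on chromosome 13 and 0.625 (0.496 to 0.777) on chromosome 17. Chromosome 13 was the one on which intergenic sequence of the cluster did not differ from the rest beyond counting error.

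Vmn1r pseudogenes inside the clusters, copies that lost their reading frame, had a peak in 12 of 105 cases (11.4%, 6.05 to 19.1), close to the share in intact genes. The 36 protein-coding genes of other names in the clusters had one in 26 cases (72.2%, 54.8 to 85.8), at a median length of 6726.5 bp. They include V1ra8 and V1rd19, which carry older names of the same family and had no peak.

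Density fell towards the genes over several kb. In bands around Vmn1r genes it was 159 per Mb (145 to 175) at 10 to 20 kb, 116 (102 to 132) at 5 to 10 kb, 113 (95.8 to 132) at 2 to 5 kb, 47.6 (29.8 to 72.1) at 1 to 2 kb and 32.5 (18.2 to 53.6) within 1 kb. The ratio of the band within 1 kb to that at 5 to 10 kb was 0.279 (0.154 to 0.470). Inside the gene bodies it rose again to 73.7 per Mb (48.9 to 106), 2.27 times (1.17 to 4.57) the density of the flanking 1 kb. In the 210 genes of 2 kb or less this ratio was 3.11 (1.42 to 7.08), with 18 summits in 0.202 Mb of bodies and 12 in 0.42 Mb of flanks.

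Olfr and Vmn2r genes showed the same low flank, with 49.7 per Mb (40.8 to 60.0) and 16.4 per Mb (4.47 to 42.0) within 1 kb. Other genes of 2 kb or less also had a lower density within 1 kb than at 5 to 10 kb. The fall was smaller there, with a ratio of 0.770 (0.704 to 0.841). Their bodies held 2.90 times (2.62 to 3.21) the density of the flanking 1 kb. A low flank and a denser body are thus not particular to the receptor genes. In Olfr bodies the density was 197 per Mb (178 to 217), above that at 10 to 20 kb by a ratio of 1.38 (1.23 to 1.55). Over all gene lengths, Vmn1r bodies stayed below their surroundings at that distance, with a ratio of 0.463 (0.304 to 0.678). So did Vmn2r bodies, with 0.695 (0.570 to 0.849). Vmn1r bodies of 2 kb or less held 88.9 per Mb (52.7 to 141), and their 1 kb flanks 28.6 per Mb (14.8 to 49.9). The interval of these short bodies lies below the 159 per Mb at 10 to 20 kb. It includes the 129 per Mb of intergenic sequence in the clusters.

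**Figure D3:**
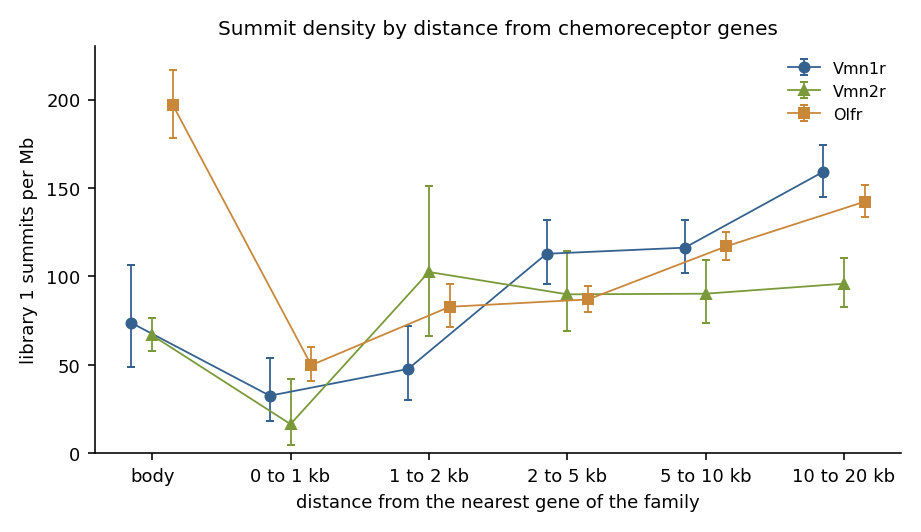
Library 1 summits per Mb (y axis) inside gene bodies and in bands of distance from the nearest gene of the same family (x axis), for Vmn1r, Vmn2r and Olfr genes; bars are 95% exact Poisson intervals. All 3 families are lowest within 1 kb of the gene, at 32.5, 16.4 and 49.7 per Mb, and Vmn1r density is highest at 10 to 20 kb.

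The peaks that Vmn1r genes did have were about as strong as all autosomal peaks. They were somewhat weaker than the intergenic peaks of the clusters. Fold enrichment is the authors' ratio of reads at the summit to background, read here with 1 added to each. Its median was 4.04 in the 43 peaks (range 2.15 to 6.19). It was 4.12 in the 1046 intergenic peaks of the clusters and 3.90 in all autosomal peaks. Median −log10 q was 4.54, 5.15 and 4.54, with upper quartiles of 5.77, 7.53 and 5.83. A −log10 q of at least 5 was reached by 41.9% of the Vmn1r peaks, 53.0% of the intergenic peaks and 41.1% of all autosomal peaks. The highest intergenic values were a fold of 10.2 and a −log10 q of 30.7, and the highest −log10 q at a Vmn1r gene was 9.90. These maxima come from 1046 and 43 peaks, so they are not alike in basis. Pileup, the number of overlapping reads at the summit as solved from fold and p-value, ran from 10 to 22 reads at Vmn1r genes. Its median of 15 was equal to that of all autosomal peaks, and the median of the intergenic peaks was 16. The background solved with it was the same value, 2.71, for 28 of the 43 peaks (65.1%). Median width was 164 bp at Vmn1r genes, 225 bp in intergenic sequence and 201 bp over all autosomes.

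The values of single genes are from library 1. Vmn1r14, a V1rc gene on chromosome 6 (57226155 to 57234350), was the only one with 3 summits. Its strongest peak (57229595 to 57229908) lay in the body at 6.19-fold enrichment, with a −log10 q of 9.90 and a pileup of 22 reads (13.8 to 33.3). A second lay 167 bp upstream of the start of the gene model, well before the transcript start used for its 300-base window, with a fold of 4.13, and the third in the body with a fold of 3.23. Its V1rc neighbours Vmn1r4 and Vmn1r5, with gene models of 33695 and 16016 bp, had 2 peaks with a best fold of 5.39 and 1 with a fold of 3.85. These 3 genes held all 6 summits in the Vmn1r windows of their cluster, and the other 25 genes had none within 1 kb.

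The same fold of 6.19 was reached at Vmn1r88 on chromosome 7, but the summit lay 787 bp beyond the gene and inside the annotated pseudogene Gm4879. Its neighbours Vmn1r87 (V1rk1), Vmn1r86 and Vmn1r89 (V1rj2) also had their summits outside the body, at 626, 639 and 676 bp, with folds of 4.58, 4.04 and 2.15. All 4 genes with a peak in this small cluster were thus counted through a flank. Vmn1r85 (V1rj3) and Vmn1r89 are receptors described as responding to sulfated oestrogens. Vmn1r85 was 1 of the 193 genes of the family with no summit within 1 kb (the nearest at 1513 bp). The Vmn1r89 peak had the lowest −log10 q of the 43, at 1.36.

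Vmn1r56, a V1rd gene, had a fold of 5.92 from a summit 958 bp outside the gene, which is close to the edge of the window. The 3 summits just inside the edge, at 847 bp (Vmn1r191), 917 bp (Vmn1r215) and 958 bp, had folds of 2.96, 3.77 and 5.92. Just outside it, Vmn1r213 at 1034 bp and Vmn1r65 at 1048 bp had folds of 3.77 and 4.58, and Vmn1r65 was counted through another peak in its body with a fold of 3.90.

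Among the V1ra and V1rb genes of chromosome 6, 5 had a peak. Vmn1r48 (V1ra3) had a fold of 5.39 from a peak of 934 bp, the widest of the 43, with its summit 732 bp beyond the gene. Vmn1r45 (V1ra2) had 2, with folds of 5.12 and 2.69, and Vmn1r40 (V1rb7) had 2, with folds of 3.50 and 2.33. Vmn1r49 (V1rb2), described as a receptor for the urinary ketone 2-heptanone, had a peak in its coding region enriched 4.58 times, with 16 reads at the summit (9.15 to 26.0). Vmn1r51 (V1ra1) had one with a fold of 4.04. Genes of this cluster have been deleted together in mice to study pheromone responses.

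Vmn1r45 and Vmn1r51 had their peaks at the same place in near-identical sequence. One summit of Vmn1r45 lay 27 bp past its annotated start and that of Vmn1r51 46 bp past its own. Their start windows, printed above, were 93.5% identical, and the parts overlapped by the peaks shared an unbroken run of 96 bases. Pileups were 13 and 14 reads, against solved backgrounds of 4.20 and 2.71, the latter the value shared by most of the 43 peaks.

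Such recurrence was wider in the family. Of the 27 summits at genes of 2 kb or less with a known strand, 18 lay in the body, and they fell into a pair of narrow zones that differed by chromosome. On chromosome 7 all 9 body summits of these shorter genes lay 623 to 709 bp from the annotated start. These belonged to Vmn1r95, Vmn1r240, Vmn1r158, Vmn1r101, Vmn1r116, Vmn1r114, Vmn1r250, Vmn1r260 and Vmn1r183, all of the largest cluster. Vmn1r95 had the highest fold (5.39, pileup 19 reads) and Vmn1r250 and Vmn1r183 the lowest (2.62 and 2.47, the latter with 16 reads against a solved background of 5.88). A longer gene of another chromosome 7 cluster, Vmn1r65 (3261 bp), had its body summit 438 bp from the start, outside that zone and inside the one on chromosome 13.

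On chromosome 13 all 7 body summits lay 262 to 441 bp from the start, at Vmn1r217, Vmn1r220, Vmn1r221, Vmn1r207, Vmn1r-ps103, Vmn1r196 and Vmn1r222. Their folds ran from 3.50 to 4.31 and their pileups from 12 to 15 reads. The name of Vmn1r-ps103 marks a pseudogene, but the gene table lists it as protein-coding. Vmn1r193, with the highest fold of the chromosome 13 cluster (4.85), had its summit 469 bp beyond its end. In genes of 2 kb or less the zones did not overlap, and the single body summits on chromosomes 6 (Vmn1r49, 680 bp) and 1 (Vmn1r1, 318 bp) lay within the range of one or the other. Genes of a cluster share sequence, so these summits are not independent.

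**Figure D4:**
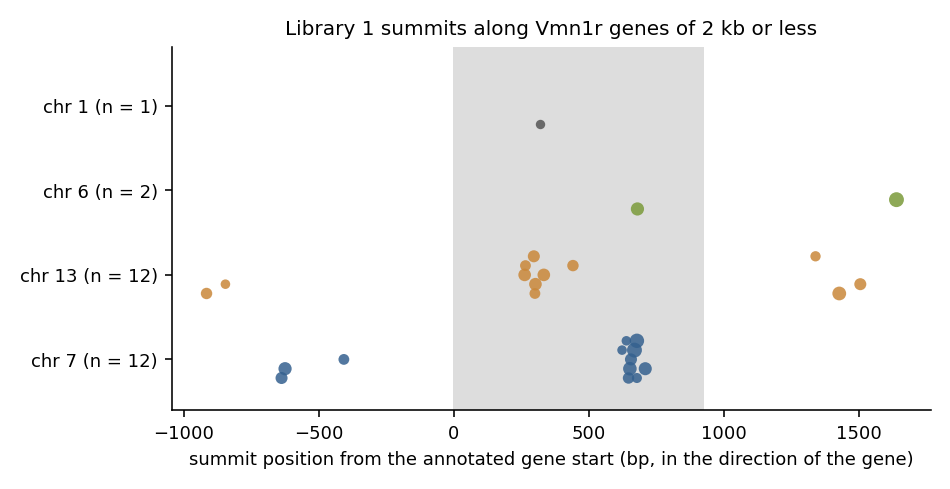
Distance of each library 1 summit from the annotated start (x axis, bp along the gene) for 27 summits at Vmn1r genes of 2 kb or less with a known strand, by chromosome (y axis); points are summits, their area grows with −log10 q, vertical shifts only separate points, and grey marks the median gene body. Body summits lie at 623 to 709 bp on chromosome 7 and at 262 to 441 bp on chromosome 13, and longer genes such as Vmn1r65 (438 bp, chromosome 7) are not drawn.

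Likeness to the nearest relative was measured on the start windows, because the planned comparison of proteins was not run here. The median identity to the closest other Vmn1r gene was 89.1%, and 54 of the 206 windows were identical to at least 1 other, 52 of them in the largest cluster. A peak was present at 13 of 85 genes with under 80% identity (15.3%, 8.40 to 24.7), 10 of 38 with 80 to 95% (26.3%, 13.4 to 43.1) and 12 of 83 with 95% or more (14.5%, 7.70 to 23.9). Among the 54 identical ones it was 6 (11.1%, 4.19 to 22.6). In genes of 2 kb or less the shares were 13.3% under 80% identity, 16.7% at 80 to 95% and 14.5% at 95% or more. The intervals overlap, so no order by identity was seen at these numbers. Identity of start windows does not measure how many reads could be placed in the wider windows, and the part of read placement in the low counts was not tested.

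Genes with identical start windows were split by the calls. The peaks of these genes lay outside the start windows, and the sequence under them was not compared between copies. The 4 genes that share the printed Vmn1r114 window had a peak at Vmn1r114 and Vmn1r250 and none at Vmn1r93 and Vmn1r126. In 4 further pairs with identical windows, a peak stood at Vmn1r48 and not at Vmn1r47, at Vmn1r95 and not at Vmn1r143, at Vmn1r101 and not at Vmn1r149, and at Vmn1r260 and not at Vmn1r249. In no set of identical windows did every copy have a peak.

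**Figure D5:**
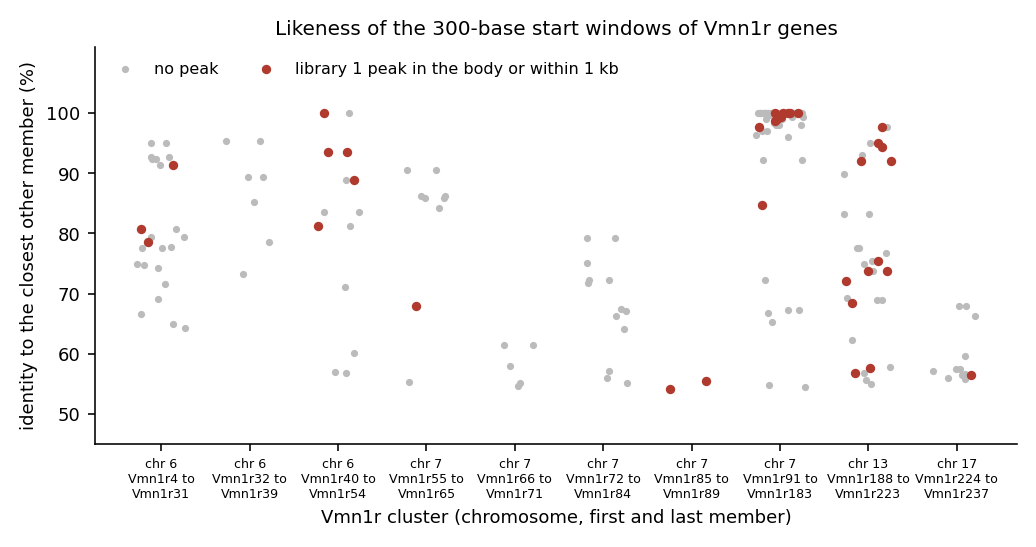
Percent identity of the 300-base start window to that of the closest other Vmn1r gene (y axis) for the genes of each cluster with a matched window (x axis); each point is a gene, red where it had a library 1 peak, and horizontal shifts only separate points. In the cluster from Vmn1r91 to Vmn1r183 the median identity is 100%, and genes with and without a peak lie at the same levels.

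By the older subfamily letters that the gene table gives for 128 of the genes, peaks were present at 7 of 21 V1rh genes, 3 of 9 V1ra, 2 of 6 V1rb, 2 of 9 V1ri, 3 of 20 V1rd and 3 of 31 V1rc genes. None of 13 V1re and none of 11 V1rg genes had one, the latter all in the cluster from Vmn1r72 to Vmn1r84. The smaller V1rf, V1rj and V1rk groups had 1 of 5, 1 of 2 and 1 of 1. Subfamilies follow the clusters, so these counts repeat the order seen there. The share over the whole family was 16.5%, over all autosomal protein-coding genes 90.0% and over other short genes 73.8%. The groups are small and no intervals were computed, so differences among subfamilies are not established.

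A further 9 genes stood outside the clusters, and 1 had a peak. It was Vmn1r1 on chromosome 1 (182157178 to 182158098), whose summit was enriched 2.82 times with 10 reads (4.80 to 18.4). Vmn1r186 and Vmn1r187 lie at the start of chromosome 7, where the first library 1 summit was 2907050 and 2829377 bp away. For those genes an absent peak cannot be told apart from sequence in which no peak was called at all. Both still count among the 231 genes, the 193 without a peak and the 0.842 Mb of Vmn1r windows. They are not part of the cluster densities.

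Genes of vomeronasal signalling and sensory neuron development all had a library 1 peak (25 of 25). The share over all autosomal protein-coding genes, 90.0%, is near that count at a similar median length (16621 bp in the list and 17491 bp over all genes), so the count says nothing particular about the list. The median density of its windows was 540 summits per Mb, and that over all genes was 374 per Mb. The highest −log10 q was 19.9 at Robo2, an axon guidance receptor of vomeronasal neurons, with a fold of 9.16. It was the best of 77 summits over a gene of 1555468 bp, whose density, 49.4 per Mb, was the lowest of the list. Next by −log10 q came the G protein subunit Gnao1, which serves the type 2 receptors (16.9), and the chloride channels Ano2 (13.1) and Ano1 (11.5). The adhesion molecule Kirrel3 followed (11.5). These values are maxima over 77 to 155 summits per gene, and they were not compared with genes of like length. Trpc2 and Gnai2, the channel and the G protein subunit of Vmn1r neurons, named here after their values were seen, had 19 and 17 summits with best folds of 5.66 and 5.39. In library 2, 1 of the 25 had a summit, Ano2, where the share over all autosomal protein-coding genes was 0.150%.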

How the data were processed

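Each library had its own peak list, deposited by the authors in the narrowPeak format of MACS2. Per the submitters' processing notes the tools were MACS2 2.1.0, Bowtie 1.1.2, Trimmomatic 0.33 and bcl2fastq 2.17, with no settings given, and the genome builds mm10 and hg38. How reads matching several places were treated is not given in the sources used here. The deposited lists give a whole-number score (the −log10 q times 10, truncated), the fold enrichment as a ratio, the −log10 p-value and q-value, and the summit offset. No read depth per library is stated.

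Gene bodies and start windows came from RefSeq tables of GRCm38.p6. The table gives gene ends without exons. Summits were counted in bodies extended by 1 kb, with overlapping bases counted once for densities. Intergenic sequence lay over 1 kb from any annotated gene, and assembly gaps were not removed. Shares have Clopper-Pearson, densities Poisson, and density ratios conditional exact 95% intervals, with no p-value. Pileups were solved from fold and p-value (all 43 recovered within 0.002 on the −log10 scale). Start windows were aligned globally with Biopython 1.88 (match 1, mismatch -1, gap -2 and -0.5). Python 3.11.15, NumPy 2.4.6, SciPy 1.17.1, pandas 2.3.3 and matplotlib 3.10.9 were used, and counting was tested on simulated data. Alternatives varied the window, threshold, cluster gap and intergenic definition.

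Genes named in the text are the 12 with the highest −log10 q, any with 3 or more peaks or a library 2 peak, the highest of each cluster, 3 with described ligands, and the 5 highest of the signalling list. Others were named after their values were seen. That rule gave the name V1rb2 to Vmn1r51. The gene table gives it to Vmn1r49, so both were described. The members and lists were chosen with earlier results of these data known.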

Additional observations from a re-analysis of the deposited data

How the results depend on the processing

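The number of Vmn1r genes with a library 1 peak, 38, changed with the window and the threshold. It was 25 in the gene body alone, 115 within 5 kb, 17 with −log10 q of at least 5 and 6 when peaks were limited to the top 10% by fold. Beside these, all autosomal protein-coding genes gave 88.4%, 94.3%, 78.9% and 52.6%. Any overlap of the peak gave 40. Library 2 gave 0 under all 4 of its alternatives. The count over both libraries was 38, and 0 to 38 when either library was left out, since every peak came from library 1. The ratio of Vmn1r to intergenic density, 0.411, stayed below 1 under all 9 alternatives, 2 of them chosen after seeing the data. It moved to 0.601 (0.394 to 0.879) with gene bodies alone and to 0.565 (0.481 to 0.661) with windows of 5 kb and intergenic sequence over 5 kb from genes, and otherwise ran from 0.333 to 0.510. The lowest of these was for peaks with −log10 q of at least 5. The highest, chosen after seeing the data, was without the largest cluster, and 0.348 was found without the chromosome 13 cluster. The cause of the moves was not tested. The planned grouping by protein identity was not run. No paired analysis was possible because there is 1 group. Ratios of single clusters rest on 0 to 12 summits in genes, which limits their precision.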
